A study of Mus musculus with 40 samples.

Results

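The mouse genes of the potassium channel families, the voltage-gated sodium and calcium channel families and the chloride channel family were examined. The tissues were the gastrocnemius and the quadriceps of mice on an LFD (low fat diet) or an HFD (high fat diet). Beside voltage-gated pores, the potassium channel genes included inward rectifiers, leak channels, channels gated by calcium or sodium ions and auxiliary subunits. The genes were chosen by symbol alone, among the probe sets whose symbol, mapped from the Entrez number of the probe set, starts with *Kcn*, *Scn*, *Cacna*, *Cacnb*, *Cacng* or *Clcn* and goes on as a member of these families does. The 118 genes described here, of the 16475 probe sets that are no controls, were 77 potassium, 11 sodium, 22 calcium and 8 chloride channel genes. A mean signal intensity over 20 on the 40 arrays, the level from which a probe set was tested, was reached by 18 of the 118 genes (15.3%), against 6479 of all 16475 (39.3%).

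RNA of both muscles of 20 male mice was hybridized to Affymetrix arrays, 1 for each muscle of each mouse, so that each of the 4 groups (LFD quadriceps, LFD gastrocnemius, HFD quadriceps and HFD gastrocnemius) held 10 arrays. All mice were of the strain that the labels spell C56BL/6J (C57BL/6J in the study's methods), carried no named genetic change, were 9 weeks old when a run-in on LFD began, which lasted 3 weeks, and then received the LFD or the HFD for 8 weeks, up to an age of 20 weeks. The labels give each mouse a number, so that the muscles of a mouse can be compared directly. For all 40 arrays the extraction protocol of the labels speaks of the quadriceps alone, while title, source and characteristics name the muscle of each array.

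A muscle fiber fires when sodium channels of its surface membrane open. Voltage-gated potassium channels then bring the membrane back to rest, and inward rectifiers, leak channels and chloride channels hold it there. Calcium channels of the transverse tubules act as the voltage sensor that couples the action potential to calcium release, and auxiliary subunits set how fast and at which voltage the pores open, while chloride family members inside the cell exchange chloride for protons on endosomes and lysosomes.

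The deposited signals are normalized intensities on a linear scale, with array medians between 8.8 and 9.4. The summed signal of 10 fast fiber genes lay between 164912.7 and 185139.0 on all 40 arrays, as in skeletal muscle. This sum cannot check which muscle an array holds, since 0 of the 10 genes were called between the muscles in either diet. However, a set of 11 arrays stood apart. In the deviations from the group means of the 6479 tested probe sets, the first principal component (28.9% of the variance) ran from 0.20 to 0.30 on these 11 arrays and from -0.19 to 0.02 on the other 29. The set held 3 LFD quadriceps, 2 LFD gastrocnemius, 3 HFD quadriceps and 3 HFD gastrocnemius arrays, and the labels name no batch for it. In addition, the arrays of LFD mouse 141 had signals between those of the muscles for several genes that tell the muscles apart. Its gastrocnemius array gave a signal of 205.3 for the transcription factor gene *Tbx1* (36.0 to 56.3 on the other 9) and its quadriceps array gave 242.0 (354.0 to 634.0). For *Hoxd8* these arrays gave 362.3 (533.1 to 761.0) and 346.0 (60.8 to 147.2), and for *Dkk3* 70.4 (8.9 to 16.7) and 103.9, the latter inside the range of the other quadriceps arrays (69.7 to 123.9). Both arrays of mouse 141 are among the 11. Results are given below with all arrays. Where a gene starts or stops passing the FDR, results without mouse 141 or with the array set as a term of the model are added.

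**Figure D1:**
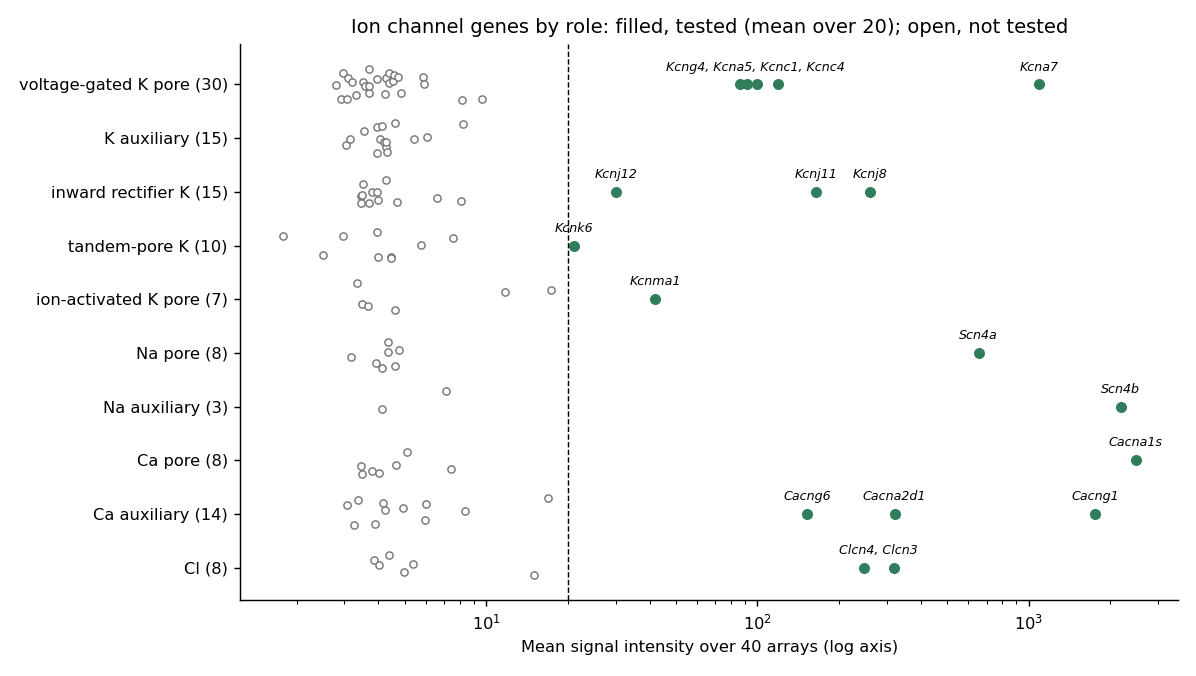
Mean signal intensity over all 40 arrays (log axis) of the 118 channel genes by role, with the number of genes of each role in parentheses. Filled circles are the 18 genes over 20 (dashed line) and open circles the 100 others, which lie between 1.78 and 17.3, and the scale serves to place each gene against the line of 20, not against other genes, since probe sets differ in brightness.

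Of the 100 genes not over 20, 96 had a mean signal under 10 and 78 under 5, and the median of their means was 4.16. The array medians are no like measure for these 100 genes, since they also cover the probe sets over 20. No group mean of any of them exceeded 20. The genes nearest to the line were *Kcnn1*, a calcium-activated potassium channel of small conductance, at 17.3, *Cacnb1*, the beta subunit of the muscle calcium channel, at 17.0, and *Clcn7*, a lysosomal chloride-proton exchanger, at 15.0. Single arrays passed 20 for *Kcnn1* (5 arrays) and *Cacnb1* (4 arrays) only. *Kcnj2*, the inward rectifier of the resting membrane, and *Kcnn3*, a further small-conductance channel, had means of 8.10 and 3.33. Just over the line were the leak channel gene *Kcnk6* at 21.1, *Kcnj12* at 30.0 and *Kcnma1* at 42.1. Of the 18 genes over 20, 16 exceeded it on all 40 arrays, while *Kcnma1* did so on 39 and *Kcnk6* on 22.

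By role, the genes over 20 were 5 of 30 pore subunits of voltage-gated potassium channels, 0 of 15 auxiliary potassium channel subunits, 3 of 15 inward rectifiers, 1 of 10 tandem-pore leak channels, 1 of 7 channels gated by calcium or sodium ions, 1 of 8 sodium channel pores, 1 of 3 sodium channel auxiliaries, 1 of 8 calcium channel pores, 3 of 14 calcium channel auxiliaries and 2 of 8 chloride family members. No probe set carried the symbol *Clcn1* or *Kcnq5*, so neither gene could be examined here. Whether a low signal comes from little mRNA or from the probe set was not tested.

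In each diet 2 of the 18 tested genes, *Kcnc4* and *Kcng4*, were called differentially expressed between the muscles, and both had a lower expression in the gastrocnemius. The criteria were a fold change above 1.3 together with an FDR below 0.05 by limma (Benjamini-Hochberg over all 6479 probe sets), and of these probe sets 2.52% were called in LFD mice (1.1% lower) and 3.46% in HFD mice (1.54% lower). By FDR alone, which passed 5.22% and 6.62% of all probe sets, *Kcnc1* (lower) and *Cacng1* (higher) passed in both diets as well, in all 4 genes in each diet. The log2 fold change was below 0 for 12 of the 18 genes in LFD mice and 12 in HFD mice (54.3% and 56.1% of all probe sets). Over the 18 genes the median log2 fold change was -0.094 in LFD mice and -0.057 in HFD mice, against -0.01 and -0.016 over all tested probe sets. In a bulk muscle sample fewer cells of a type and less RNA per cell cannot be told apart.

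*Kcnc4* encodes Kv3.4, a voltage-gated pore that opens at strong depolarization and inactivates fast. *Kcng4* encodes Kv6.4, a silent subunit that forms no channel alone and joins pore subunits of another Kv family. RefSeq (assembly GRCm38.p6) gives the bases before the start of *Kcnc4* and *Kcng4*, which are shown because these genes were lower in the gastrocnemius in both diets. Each stretch holds the 250 bases upstream of the annotated start, 5′ to 3′ on the gene's strand, for *Kcnc4* at chr3:107458899-107459148 (minus strand) and for *Kcng4* at chr8:119635681-119635930 (minus strand). Capitals mark E-boxes, CANNTG, the motif of MyoD and other myogenic factors.
*Kcnc4*: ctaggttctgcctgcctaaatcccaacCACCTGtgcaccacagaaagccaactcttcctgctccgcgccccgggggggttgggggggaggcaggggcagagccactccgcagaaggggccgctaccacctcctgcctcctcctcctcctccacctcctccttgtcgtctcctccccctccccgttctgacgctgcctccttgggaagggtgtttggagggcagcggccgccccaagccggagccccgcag
*Kcng4*: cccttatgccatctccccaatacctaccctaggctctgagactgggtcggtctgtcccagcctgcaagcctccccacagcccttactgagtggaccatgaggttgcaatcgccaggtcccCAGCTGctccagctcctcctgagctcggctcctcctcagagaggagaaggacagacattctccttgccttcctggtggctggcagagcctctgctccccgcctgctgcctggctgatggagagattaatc
The E-box read CACCTG before *Kcnc4* and CAGCTG before *Kcng4*, 1 in each. At least 1 CANNTG was found in 66.2% of 32851 promoter stretches of the same length, CACCTG on either strand in 17.2% and CAGCTG in 13.0%. The motifs TGGAAA of NFAT factors, TCAGGTT (MEF3) and the MEF2 motif, searched on both strands, had no match in either stretch, against 18.6%, 3.49% and 0.508% of all stretches. GC content was 68.0% and 60.4%, against a median of 52.4%. Such matches are letters in a sequence and were not tested for binding.

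In LFD mice *Kcnc4* had gastrocnemius signals with a lowest, median and highest value of 75.6, 98.6 and 119.2, against 105.8, 149.8 and 203.4 in the quadriceps. The gastrocnemius was lower in 10 of 10 mice, and 8 gastrocnemius arrays lay below the lowest quadriceps array. Mean signals were 96.7 ± 13.0 and 152 ± 31.6 (SD, n = 10 each), a log2 fold change of -0.63 (standard error, SE, 0.11) or 1.55-fold, with limma's adjusted p of 0.00109. In HFD mice the signals were 55.6, 84.7 and 90.9 in the gastrocnemius and 121.2, 142.3 and 182.5 in the quadriceps. These groups did not overlap, and the gastrocnemius was lower in 10 of 10 mice. The log2 fold change was -0.84 (SE 0.09) or 1.79-fold, from means of 82.1 ± 11.0 and 146.5 ± 19.6, with limma's adjusted p of 1.79e-06.

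*Kcng4* signals in LFD mice were 55.7, 69.25 and 104.8 (lowest, median and highest) in the gastrocnemius and 93.5, 104.3 and 165.8 in the quadriceps. The lowest quadriceps array and the highest gastrocnemius array both belonged to mouse 141, and the other 9 gastrocnemius arrays lay below all quadriceps arrays. Means of 72.5 ± 15.9 and 113.5 ± 22.9 gave a log2 fold change of -0.65 (SE 0.12) with limma's adjusted p of 0.00204, and of -0.74 with 0.000296 without mouse 141. In HFD mice *Kcng4* lay between 46.0 and 73.6 (median 58.4) in the gastrocnemius and between 75.7 and 120.8 (median 93.9) in the quadriceps, with no overlap and a lower gastrocnemius in 10 of 10 mice. Here the log2 fold change was -0.69 (SE 0.10) or 1.62-fold, with limma's adjusted p of 0.0001.

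**Figure D2:**
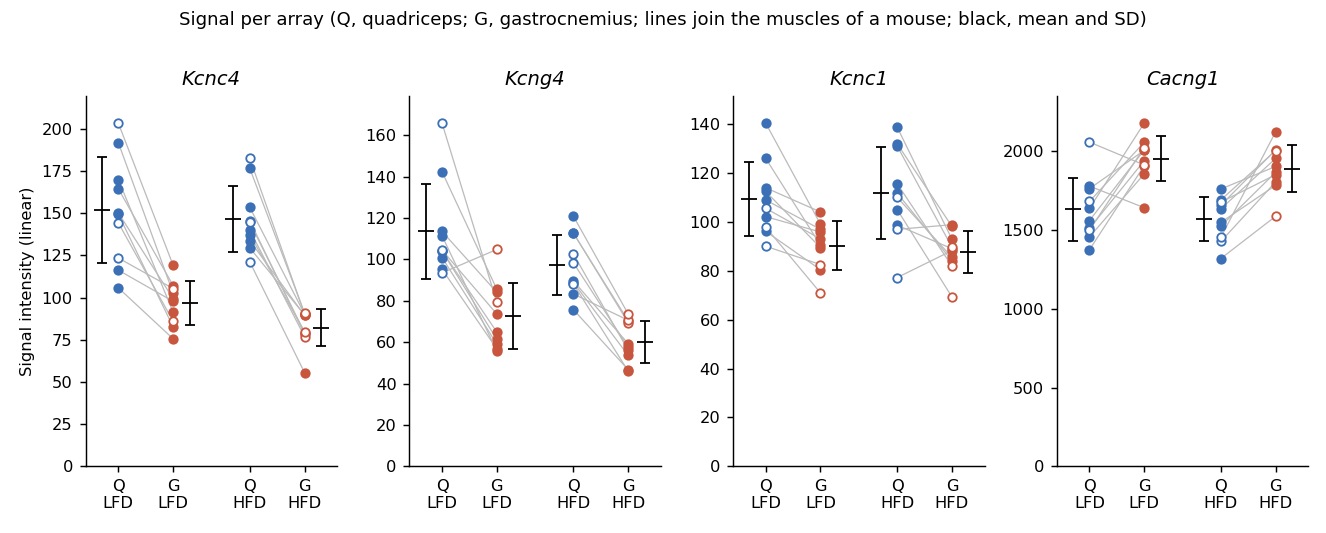
Signal intensity per array (linear axes from 0) of the 4 channel genes with an FDR under 0.05 between the gastrocnemius (G) and the quadriceps (Q) in both diets, with a line for each mouse, open circles for the 11 arrays that stood apart and black bars for mean and SD of 10 arrays. *Kcnc4* and *Kcng4* do not overlap between muscles in HFD mice, while *Kcnc1* and *Cacng1* overlap in both diets.

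*Kcnc1*, which encodes Kv3.1, the close relative of Kv3.4, passed the FDR in both diets at a smaller size. Its signals in LFD mice lay between 70.9 and 104.0 in the gastrocnemius and between 90.0 and 140.3 in the quadriceps (medians 91.7 and 107.2), and the gastrocnemius was lower in 10 of 10 mice. In HFD mice the ranges were 69.3 to 98.8 and 77.2 to 138.7 (medians 88.6 and 110.85). The log2 fold changes were -0.27 (SE 0.08) in LFD mice and -0.34 (SE 0.09) in HFD mice, the latter lower in 8 of 10 mice and not in mice 149 and 157, with limma's adjusted p of 0.0436 and 0.0256. With 1 mouse left out at a time, the adjusted p of *Kcnc1* ran from 0.0315 to 0.104 in LFD mice, where the FDR was passed without mouse 141 alone, and from 0.00429 (without mouse 149, at -0.39 and past the fold of 1.3) to 0.0715 in HFD mice, where it was not passed without mouse 143, 144, 145, 146, 150 or 151.

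The remaining voltage-gated pores over 20 were *Kcna7* and *Kcna5*. *Kcna7*, which encodes Kv1.7, was nearly flat, with means of 1103 ± 56.2 and 1102 ± 38.3 in the quadriceps and gastrocnemius of LFD mice and 1088 ± 79.0 and 1087 ± 79.3 in HFD mice, and the 95% interval of its muscle difference ran from -0.08 to 0.08 in LFD mice and from -0.11 to 0.10 in HFD mice (log2). *Kcna5*, which encodes Kv1.5 and was named here after its values were seen, had the widest spread of the 18 genes in each group, with a coefficient of variation between 46.3% and 52.6%. High arrays of *Kcna5* came as pairs from a mouse. LFD mouse 160 had the highest signal of its group in both muscles (194.3 in the gastrocnemius, 155.2 in the quadriceps), and HFD mouse 150 likewise (188.0 and 180.9). The next was HFD mouse 158 with 166.3 and 176.4, while all other arrays lay at 128.8 or lower. The muscle difference of *Kcna5* had 95% intervals from -0.49 to 0.68 and from -0.52 to 0.66 (log2), so that a change of 1.3-fold in either direction lies inside them.

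None of the 3 inward rectifiers over 20 was called. *Kcnj8*, which encodes Kir6.1, a pore of ATP-sensitive channels known best from blood vessels, had signals of 235.2, 262.35 and 319.6 in the gastrocnemius against 205.4, 226.25 and 290.7 in the quadriceps of LFD mice. The gastrocnemius was higher in 10 of 10 mice, by a log2 fold change of 0.21 (SE 0.07) with limma's adjusted p of 0.071, and of 0.0168 with the array set as a term. Without mouse 141 *Kcnj8* passed the FDR in LFD mice as well, and was not called. *Kcnj12*, the inward rectifier Kir2.2, had a log2 fold change of -0.26 (SE 0.11, adjusted p = 0.199 by limma) in LFD mice and of -0.15 (SE 0.11, 0.519) in HFD mice.

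*Kcnma1*, the large-conductance calcium-activated channel, had in HFD mice a median of 45.15 (28.0 to 64.9) in the gastrocnemius and of 34.05 (14.9 to 42.9) in the quadriceps. In 8 of 10 mice the gastrocnemius was higher, and 6 gastrocnemius arrays lay above all quadriceps arrays. The exceptions were mice 144 and 146. These mice and mouse 151, where the gastrocnemius was higher, had only their gastrocnemius array among the 11 that stood apart. The log2 fold change of 0.53 (SE 0.17) had limma's adjusted p of 0.0697 and was not called. In 3 of 14 other settings and without 2 of 10 mice *Kcnma1* was called, namely after a repeated quantile normalization (0.0495), with array weights (0.0255), in a fit of all 40 arrays (0.0249) and without mouse 144 (0.0447) or 146 (0.0424). Within the 29 arrays the value was 0.68 (adjusted p = 0.0776 by limma) and within the 11 arrays 0.16 (0.818). In LFD mice its log2 fold change was 0.19 (SE 0.13, adjusted p = 0.467 by limma).

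**Figure D3:**
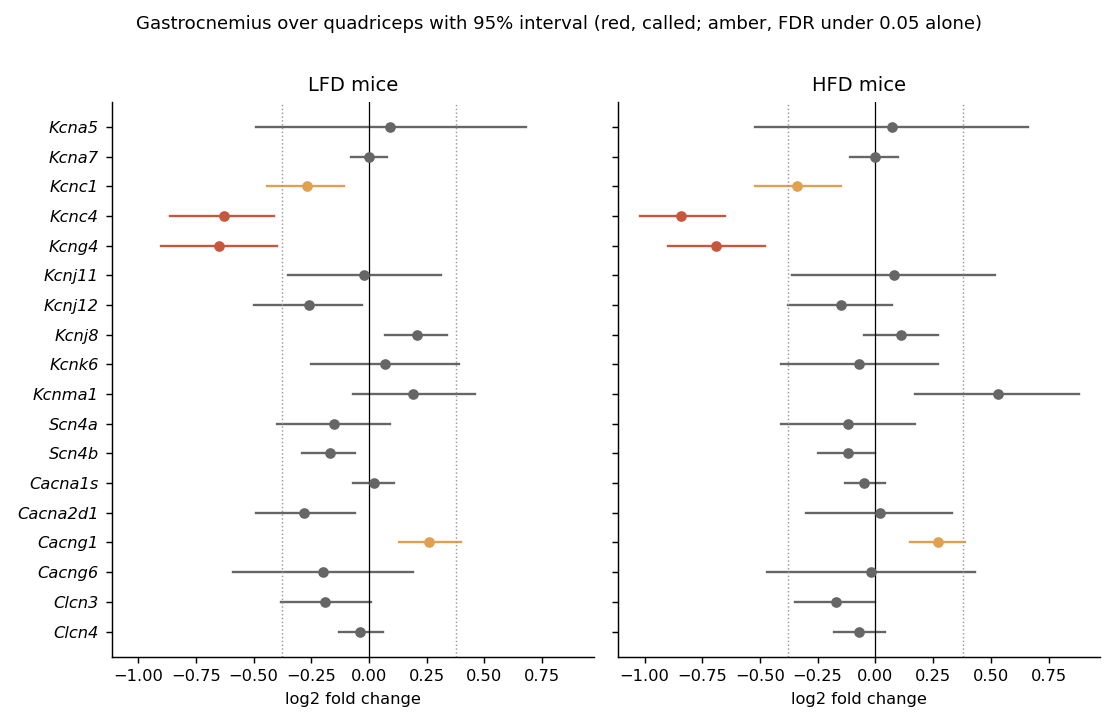
Log2 fold change of the gastrocnemius over the quadriceps with its 95% interval for the 18 tested channel genes, in LFD mice and in HFD mice (limma, 20 arrays each, dotted lines at 1.3-fold). Red marks called genes and amber genes with an FDR under 0.05 alone, with *Kcnc4* farthest to the left in HFD mice at -0.84.

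Among the sodium channel genes *Scn4a*, which encodes Nav1.4, the pore that carries the action potential of the fiber, had wide ranges in both muscles, from 453.1 to 764.9 in the gastrocnemius and from 495.2 to 825.9 in the quadriceps of LFD mice. Its log2 fold changes were -0.15 (SE 0.12) and -0.12 (SE 0.14), with limma's adjusted p of 0.544 and 0.752. *Scn4b*, the beta4 subunit, was lower in the gastrocnemius of 10 of 10 LFD mice by a log2 fold change of -0.17 (SE 0.06), without passing the test (adjusted p = 0.0708 by limma), and of 6 of 10 HFD mice by -0.12 (adjusted p = 0.284).

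Of the calcium channel genes, those of the pore of the transverse tubules and of a gamma1, a gamma6 and an alpha2delta subunit were over 20, and none was called. *Cacna1s*, the pore and voltage sensor Cav1.1, had means of 2505 ± 148 in the gastrocnemius against 2471 ± 145 in the quadriceps of LFD mice and of 2440 ± 131 and 2520 ± 146 in HFD mice, and the 95% intervals of its difference, from -0.07 to 0.11 and from -0.13 to 0.04 (log2), lie within 1.3-fold. *Cacng1*, the gamma1 subunit that limits calcium entry through this channel, was the 1 member that passed the FDR as higher in the gastrocnemius in both diets. Its signals in HFD mice were 1585.1, 1882.15 and 2120.0 in the gastrocnemius, against 1317.3, 1588.9 and 1757.8 in the quadriceps, and 9 gastrocnemius arrays lay above all quadriceps arrays. The log2 fold change was 0.27 (SE 0.06) in 10 of 10 HFD mice and 0.26 (SE 0.06) in LFD mice, where 8 of 10 mice were higher and mice 141 and 142 were not, with limma's adjusted p of 0.00525 and 0.0174. With 1 mouse left out at a time, the adjusted p in LFD mice ran from 0.00321 (without mouse 141, at 0.31) to 0.0609, and the FDR was not passed without mouse 147, 156 or 159, while in HFD mice it was passed each time.

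*Cacna2d1*, the alpha2delta subunit that brings the channel to the surface, had signals of 269.4, 294.2 and 368.9 in the gastrocnemius, against 270.9, 361.3 and 534.5 in the quadriceps of LFD mice. It was lower in the gastrocnemius of 9 of 10 mice, with a log2 fold change of -0.28 (SE 0.10) and limma's adjusted p of 0.127, of 0.0182 with the array set as a term and of 0.0188 with array weights. In HFD mice the difference was 0.02 (SE 0.15), and -0.23 within the 11 arrays that stood apart (adjusted p = 0.731 by limma). The chloride family members *Clcn3* and *Clcn4* encode chloride-proton exchangers of endosomes. *Clcn4* differed by -0.04 (95% interval -0.13 to 0.06) in LFD mice and -0.07 (-0.18 to 0.04) in HFD mice on the log2 scale. For *Clcn3* these values were -0.19 (SE 0.09) and -0.17 (SE 0.08), with limma's adjusted p of 0.286 and 0.267.

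Several channel genes split along the set of 11 arrays rather than along muscle or diet, as the plot of *Cacng6*, *Kcnj11*, *Scn4a*, *Kcnk6* and *Kcna5* shows. *Cacng6*, the gamma6 subunit, lay between 202.7 and 260.7 on the 11 arrays and between 97.6 and 155.5 on the other 29. *Kcnj11*, which encodes Kir6.2, the pore of the ATP-sensitive potassium channel of muscle, lay between 203.3 and 286.0 against 83.3 and 163.0. Neither gene overlapped between the array sets in any muscle or diet, at differences of 1.95-fold and 1.80-fold. For *Scn4a* the 11 arrays were higher by 1.40-fold and did not overlap the others within a muscle, with 746.4 to 852.3 against 448.1 to 740.7 in the gastrocnemius and 815.2 to 917.2 against 495.2 to 789.1 in the quadriceps. *Kcnk6* and *Kcna5* were lower on the 11 arrays, by 1.45-fold and 1.51-fold, with overlap. In all, 5 of the 18 channel genes differed by over 1.3-fold between the array sets, against 13.2% of the 6479 probe sets, and since the set was found from these same signals no test is given.

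**Figure D4:**
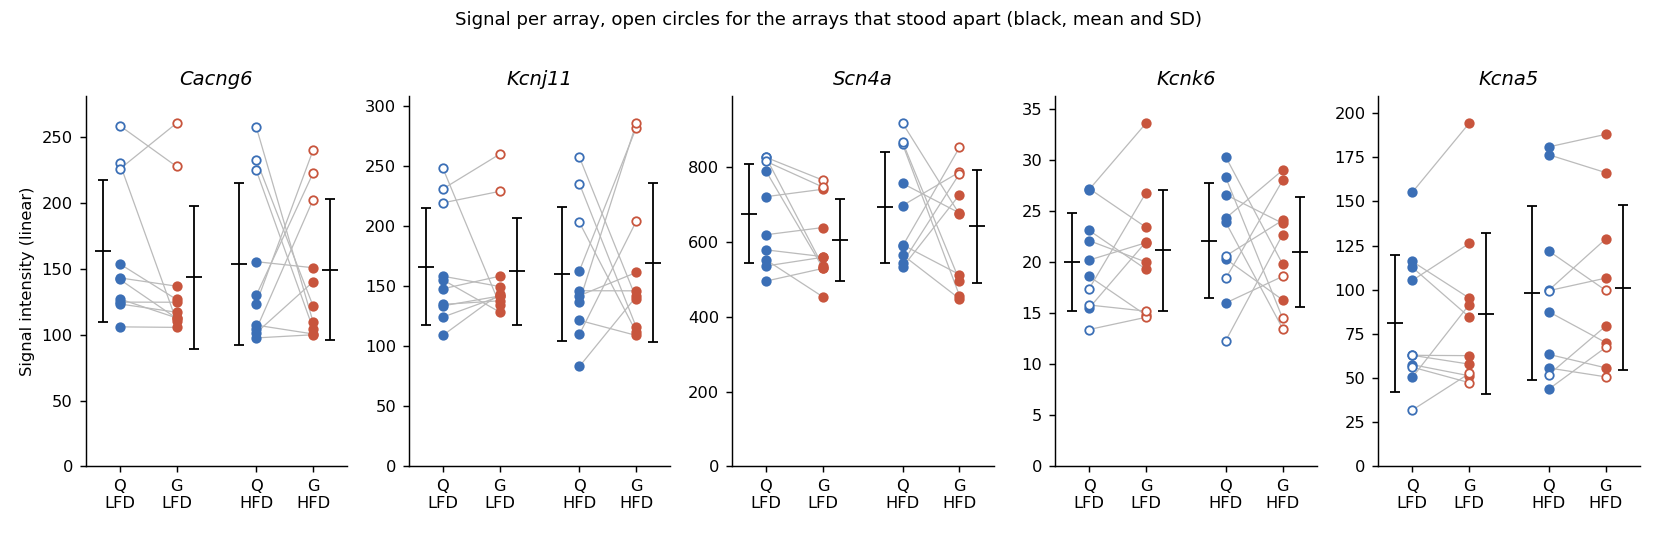
Signal intensity per array (linear axes from 0) of the 5 channel genes that differed by over 1.3-fold between the 11 arrays that stood apart (open circles) and the other 29 (filled circles), in the quadriceps (Q) and gastrocnemius (G) of LFD and HFD mice, with a line for each mouse and black bars for mean and SD. Open circles of *Cacng6* and *Kcnj11* lie above 200 in every group and all filled circles lie below 165.

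With the array set as a term of the model, *Kcnc4* and *Kcng4* were called in both diets, where 3.06% and 3.97% of all probe sets were called. By FDR alone, 7 genes passed in LFD mice and 5 in HFD mice, against 9.74% and 10% of all probe sets. New among these were *Clcn3*, lower in the gastrocnemius by -0.23 (adjusted p = 0.00425 by limma) in LFD mice and by -0.17 (0.0472) in HFD mice, and in LFD mice *Kcnj8* (higher, 0.0168) and *Cacna2d1* (lower, 0.0182). Within the 29 arrays alone *Kcnc4* had log2 fold changes of -0.61 and -0.84 and *Kcng4* of -0.71 and -0.81 in LFD and HFD mice. Of all probe sets, 3.07% were called within these 29 arrays in LFD mice and 2.98% in HFD mice. *Cacna2d1* (-0.38, adjusted p = 0.0264 by limma) was called there in addition in LFD mice and *Kcnc1* (-0.38, 0.00954) in HFD mice. Against this, *Cacna2d1* had -0.10 (0.915) and *Kcnc1* -0.23 (0.66) within the 11 arrays. Within the 11 arrays alone the values were -0.69 and -0.84 for *Kcnc4* and -0.37 and -0.43 for *Kcng4*, and none of these passed limma's adjustment there, with 2 or 3 arrays in a group.

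Diet changed none of the 18 genes past the test. In the quadriceps 0 of 18 were called, against 0.0617% of all probe sets, and 2 had an unadjusted p under 0.05 (5.68% of all). In the gastrocnemius 0 of 18 were called, against 0.216%, and 2 had an unadjusted p under 0.05 (8.97% of all). In the quadriceps these were *Kcnma1*, with a median of 34.05 (14.9 to 42.9) on the HFD against 41.1 (28.4 to 62.4) on the LFD and a log2 fold change of -0.45 (SE 0.15, adjusted p = 0.512 by limma), and *Cacna2d1*, with 294.8 (156.2 to 407.2) against 361.3 (270.9 to 534.5) and -0.32 (SE 0.13, 0.749). The HFD quadriceps arrays of *Kcnma1* and the LFD quadriceps arrays of *Cacna2d1* enter the muscle comparisons above as well. Without mouse 141 the genes with an unadjusted p under 0.05 were 4 in the quadriceps and 1 in the gastrocnemius. Added in the quadriceps were *Kcnj8* (0.16, unadjusted p = 0.0248 by limma) and *Kcng4* (-0.24, 0.0314). With the array set as a term these counts were 3 and 2, and no gene passed the adjustment in either setting. The shares of 5.68% and 8.97% hold for the fit of all arrays without this term. No share of all probe sets was taken for these other settings, so their counts have no background to stand against.

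In the gastrocnemius the genes with the smallest p were *Kcnc4*, with a log2 fold change of -0.24 (SE 0.10, adjusted p = 0.43 by limma), and *Kcng4*, with -0.26 (SE 0.11, 0.461). Their medians were 84.7 on the HFD against 98.6 on the LFD and 58.4 against 69.25, with overlapping ranges in both. Without mouse 141 the *Kcng4* value was -0.19. For 9 of the 18 genes, among them *Cacna1s*, *Kcna7*, *Clcn4*, *Scn4b* and *Cacng1*, the 95% intervals of the diet effect lay within 1.3-fold in both muscles, whereas those of *Kcna5*, *Kcnj11* and *Cacng6* reached past 1.3-fold. With the array set as a term the intervals of 11 genes lay within it, *Kcnj11* (-0.26 to 0.10 in the quadriceps and -0.25 to 0.11 in the gastrocnemius) and *Cacng6* (-0.28 to 0.04 and -0.20 to 0.12) being the additional ones.

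**Figure D5:**
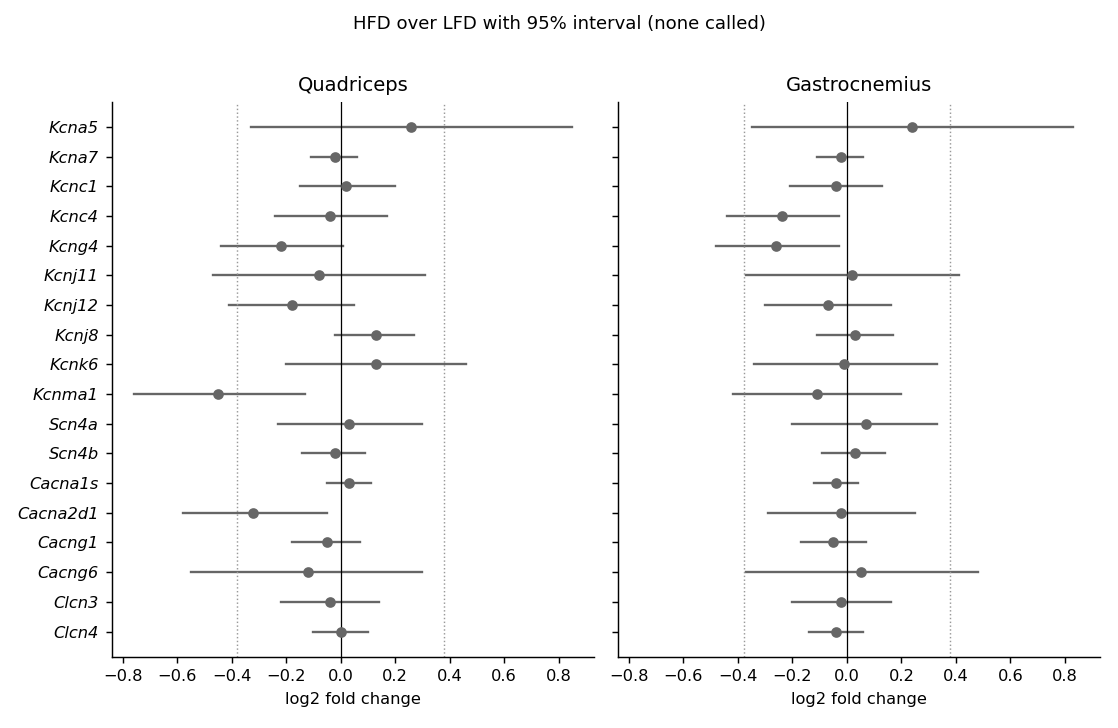
Log2 fold change of the HFD over the LFD with its 95% interval for the 18 tested channel genes in the quadriceps and in the gastrocnemius (limma, 4 groups of 10 arrays in 1 model, dotted lines at 1.3-fold). No gene was called, and *Kcnma1* lies farthest to the left in the quadriceps at -0.45.

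The muscle difference depended on diet for none of the 18 genes by limma's interaction test (0 called, as among all 6479 probe sets, 0%). No channel gene had an unadjusted p under 0.05 for the interaction, against 1.82% of all. *Cacna2d1* had the smallest, with a difference of 0.30 between the muscle differences (SE 0.19, p = 0.124 by limma before adjustment), followed by *Kcnma1* with 0.33 (SE 0.22, 0.135) and *Kcnc4* with -0.20 (SE 0.14, 0.163). Within the 29 arrays alone *Cacna2d1* and *Kcnma1* had 0.50 and 0.51 (unadjusted p of 0.0233 and 0.048 by limma), and neither passed the adjustment. Within the 11 arrays alone the values were -0.13 for *Cacna2d1*, which turns the direction, and 0.00 for *Kcnma1* (unadjusted p of 0.617 and 0.998 by limma).

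Of 48 partner genes of excitation and of excitation-contraction coupling outside these families, 45 were on the array and 29 were tested. *Ostm1*, the subunit that stabilizes the lysosomal exchanger ClC-7 of *Clcn7*, was called lower in the gastrocnemius in both diets, with log2 fold changes of -0.40 (SE 0.10) and -0.38 (SE 0.07) and a lower gastrocnemius in 10 of 10 mice each. Higher in the gastrocnemius of HFD mice were *Atp1b1*, the beta1 subunit of the sodium-potassium pump, with 0.43, and *Chrna1*, the alpha subunit of the acetylcholine receptor, with 0.45. In LFD mice these had 0.24 and 0.35 and were not called (limma, adjusted p = 0.183 and 0.0458 in that order). The other 28 tested partner genes in LFD mice and 26 in HFD mice were not called, nor was any of the 29 for diet. Of all 6479 probe sets, 2.52% were called between the muscles in LFD mice and 3.46% in HFD mice.

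Markers of other cells and of fiber types moved with the muscle as well. Of 8 slow fiber genes 6 were called higher in the gastrocnemius in LFD mice and 7 in HFD mice, with summed signals from 6132.0 to 13786.1 against 454.7 to 8121.7 and from 7594.4 to 12832.7 against 372.8 to 5889.0, while 0 of 10 fast fiber genes were called. All 4 tested of 7 Schwann cell genes were called higher in both diets, with sums over the 7 from 657.3 to 1453.6 against 490.4 to 728.4 in LFD mice and from 604.8 to 1523.6 against 451.6 to 761.7 in HFD mice. The 5 motor axon genes had sums between 19.2 and 29.8 in all groups, and none of them was over 20. Smooth muscle, known to express *Kcnj8* and *Kcnma1*, had 1 of 4 tested genes called higher in both diets (*Tagln*), with sums over 5 genes from 6902.2 to 8649.5 against 6355.0 to 7716.1 in LFD mice and from 7378.0 to 8382.8 against 6570.3 to 7789.3 in HFD mice. Most of this sum was *Des*, which skeletal fibers express as well (means of 6650 and 6190 in LFD mice), and without it, a sum taken after the values were seen, the other 4 genes gave 899.7 to 1432.5 against 709.2 to 1000.5 and 948.9 to 1652.3 against 725.2 to 1277.4. Of 3 tested endothelial genes 0 were called. Adipocyte genes were called lower (3 of 4 in LFD mice, 1 in HFD mice), as were 3 of 5 neutrophil genes in HFD mice, whose sum reached 12381.1 on an HFD quadriceps array against at most 33.8 in the HFD gastrocnemius. These marker counts stand beside 2.52% of all 6479 probe sets called in LFD mice and 3.46% in HFD mice. The part of these cells in the differences of the channel genes was not tested.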

How the data were processed

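Per the study's methods, the authors regrouped the array probes into 1 probe set per Entrez gene, normalized by quantiles and summarized with GC-RMA (version not given in the sources used here). Deposited values are intensities on a linear scale, neither counts nor log2. Symbols came from the Entrez numbers through RefSeq (GRCm38.p6, 16229 probe sets) or the platform table (28), and 218 had none, after 64 controls were left out. Of the 118 channel genes, 7 were named through RefSeq alone, and 2 more that matched the symbol rule, with 1 partner gene, stayed in the fits and are not reported here. Probe sets with a mean over 20 were tested on the log2 scale (no pseudocount) with limma 3.58.1 in R 4.3.3, muscles within the 20 arrays of a diet and diets and interaction in a model of 4 groups. Fold changes are ratios of geometric means, values are arithmetic mean ± SD, and their precision is limited by the 10 arrays per group.

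Genes named are those called or with an FDR under 0.05, a core list of muscle excitability, the 10 brightest, those nearest to 20 and those with the smallest p for diet. The genes and lists were chosen with earlier results of these data known. The array set was found after the data were seen, from the largest gap in the first principal component. The labels number the mice, which pairs the muscles by animal. The correlation of deviations within a mouse had a median of 0.39 in LFD mice (9 of 10 over 0.1) and -0.07 in HFD mice (3 of 10). Among the arrays that stood apart were both muscles of LFD mice 141 and 156 and the quadriceps of LFD mouse 154. HFD mice 143, 144, 146, 149, 151 and 157 had a single muscle among them. Pairing by animal and the array set therefore cannot be told apart in these correlations. Python 3.11.15 was used for summaries, and the tests were tested on simulated data.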

Additional observations from a re-analysis of the deposited data

Results flagged for a closer look

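The gastrocnemius of HFD mouse 149 had a *Kcnc4* signal of 55.6, the lowest of its group, with the next array at 76.9. The gap was 0.603 of the range of the group, above the critical value of Dixon's test for 10 arrays. It was the 1 lone array among 72 groups of 10 arrays (18 channel genes in 4 groups), and chance alone flags about 1 in 20 groups. Without this mouse *Kcnc4* was still called lower in the gastrocnemius of HFD mice, with a log2 fold change of -0.81 (limma's adjusted p of 2.61e-07).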

How the results depend on the processing

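The muscle differences of *Kcnc4*, *Kcng4*, *Kcnc1* and *Cacng1* in both diets, of *Cacna2d1* in LFD mice and of *Kcnma1* in HFD mice kept their direction in every setting that tested them. Among all 18 genes the sign within the 11 arrays that stood apart was opposite to that over all arrays for 6 in LFD mice, 4 in HFD mice, 5 and 7 for diet in the quadriceps and gastrocnemius and 6 for the interaction, none of them called. By FDR alone 4 channel genes passed in each diet, in place of 2. Array weights called 3 in each diet (*Cacna2d1* in addition in LFD mice, *Kcnma1* in HFD mice). For array weights, and for the fits below without a mouse or with a mouse block, the share of all probe sets called was not taken. Whether such gains are particular to channel genes was not tested. Within the 11 arrays that stood apart limma called 0 in each diet, with 2 or 3 arrays in a group. Of all 6479 probe sets, 0.0154% were called there in LFD mice and 0.216% in HFD mice. An unadjusted p under 0.05 by limma was found there for 2 channel genes in each diet, and the share of all probe sets for this was not taken. Leaving out each mouse in turn gave 2 called genes in LFD mice each time, 2 to 3 in HFD mice and 0 for diet and interaction. With the mouse as a replicate block, which pairs the muscles of an animal, 2 genes were called in each diet with a fixed or a random block, the same as without it, and the random block called 0 for diet and interaction. Refits of single genes were counted for the 10 results with an FDR under 0.05 or a call in any setting. Of these 249 refits, 232 kept the call, 13 gained and 4 lost it. The rule of FDR alone adds *Kcnc1* and *Cacng1* in both diets by its definition, and refits without a mouse share most arrays. Without the filter on signal, *Kcnn2* (mean signal 11.7) was also called in LFD mice, as lower in the gastrocnemius (log2 fold change -0.45, limma's adjusted p 0.00181), as the 1 called gene of the 100 not over 20. By FDR alone 3 of the 100 passed in LFD mice, with *Cacna2d3* (0.27, 0.0364) and *Scn2b* (0.24, 0.0477) higher in the gastrocnemius. In HFD mice 2 passed, *Scn3b* (0.28, 0.0137) and *Kcnf1* (0.35, 0.0299), both higher. The share of all probe sets that passed without the filter was not taken. Whether background compresses the fold changes of genes near the array medians was not tested. The array set, and the fits with it, were chosen after seeing the data, and the cause of these changes was not tested.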
